A study of Mus musculus with 20 samples.

Results

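The C-type lectin receptor genes described here are 10 genes of bone marrow-derived macrophages (BMDM) that encode myeloid receptors for fungal, bacterial and self ligands. They are Clec4a1, Clec4a2, Clec4a3, Clec4b1, Clec4d, Clec4e, Clec4n, Clec5a, Clec7a and Clec12a. The members were taken by symbol from a table of normalized gene counts, in which all 10 were found among 14456 listed genes. BMDM were grown with M-CSF from the marrow of wild-type C57BL/6 mice aged 8 weeks, and their total RNA was sequenced in 20 libraries. The first experiment held 4 libraries of high glucose, at 25 mM for 24 h, and 4 of normal glucose, at 5.5 mM plus 19.5 mM mannitol, a sugar alcohol that balances the osmotic pressure. In the second, naive BMDM were exposed for 24 h to PBS (n = 4), or to 2000000000 particles per ml of exosomes collected from BMDM in normal glucose (BMDM-NG-exo, n = 4) or in high glucose (BMDM-HG-exo, n = 4). The study states that its exosome samples were from separate exosome preparations, and the labels date them to different days. The sources used here do not say which libraries came from separate mice, so the p-values measure the spread between these libraries, which for the glucose libraries may be technical. The comparisons address how high glucose changes the macrophages, and how exosomes made in high glucose change naive macrophages.

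C-type lectin receptors carry a carbohydrate-recognition-like domain outside the cell and pass their signal on through a few adaptors. Dectin-2 (Clec4n), Mincle (Clec4e) and MCL (Clec4d) signal through the Fc receptor gamma chain (Fcer1g), MDL-1 (Clec5a) uses DAP12 (Tyrobp) and DAP10 (Hcst), and Dectin-1 (Clec7a) carries its own activating tyrosine motif. The routes through the gamma chain, DAP12 and the motif of Dectin-1 meet at the kinase Syk and the adaptor Card9, which lead to NF-kB and cytokine genes. DCIR (Clec4a2) and MICL (Clec12a) carry an inhibitory tyrosine motif that recruits the phosphatases SHP-1 (Ptpn6) and SHP-2 (Ptpn11). Clec4a1 and Clec4a3 are close relatives of Clec4a2 that lack this inhibitory motif, and Clec4b1 encodes DCAR, an activating relative that pairs with the Fc receptor gamma chain. In macrophages these receptors sense fungal cell walls, mycobacterial lipids and dead cells.

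The totals of reads on listed genes were between 34016445 and 56310712 per library (median 43311931). The 10 genes took between 0.0599% and 0.0794% of them. Between 490 and 11770 reads were counted on each member in each library, apart from Clec4b1, which had between 21 and 123 reads and is the least precise of the set. Replicate libraries were not duplicates, since the lowest chi-square of 30 pairs was 5.20 per degree of freedom. All 9 macrophage markers examined were listed, among them Lyz2, Csf1r and Adgre1 with medians of 570203, 103572 and 36300 normalized counts. Of 11 neutrophil markers, 6 were listed. Ly6g, Elane, Camp, Retnlg and Cxcr2 were not among the listed genes. S100a8 had between 7.35 and 52.0 normalized counts, Mpo between 0 and 43.7 and S100a9 between 32.1 and 89.6. Ltf had between 25.3 and 121, Ngp between 47.0 and 125 and Mmp8 between 465 and 1159. No marker of dendritic cells (0 of 8), T and NK cells (0 of 6), erythroid cells (0 of 6) or mast cells and basophils (0 of 6) was listed, while 1 of 5 B cell markers (Cd79b, at most 68.0 normalized counts) and 4 of 6 stromal markers were. The lowest median of reads of any listed gene was 11, so a gene that was not listed may still have had reads.

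All 10 genes lie on chromosome 6 of GRCm38. The 7 Clec4 genes form a cluster of 368.023 kb between 122921848 and 123289870. In the order of the chromosome they are Clec4a1 (122921848 to 122934619), Clec4a3 (122952515 to 122969875), Clec4b1 (123049962 to 123071555), Clec4a2 (123106428 to 123143999), Clec4n (123229843 to 123247021), Clec4d (123262111 to 123275265) and Clec4e (123281789 to 123289870), with Clec4e on the reverse strand and the other 6 on the forward strand. Clec12a (129342691 to 129365303, forward strand) and Clec7a (129461591 to 129472779, reverse strand) lie together in another part of the chromosome, and Clec5a (40574894 to 40585821, reverse strand) lies apart from both. GENCODE M21 annotates Clec7a as a polymorphic pseudogene. Because the Clec4a genes arose by duplication, stretches of 100 bases, the length of a read, were compared between transcripts. Clec4a2 shared 64 of its 2990 stretches (2.14%) with Clec4a4, a neighbour listed at 7.35 to 24.5 normalized counts, and the other 9 members shared none with any other annotated gene. Clec4a2 was also the only member that overlapped another annotated gene, the pseudogene Gm44132 on the same strand, which was not among the listed genes.

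Per kb of exon, Clec4d was the highest of the 10 in each group, with a mean of 5635 normalized counts per kb over the 20 libraries. Clec7a followed with 1897, Clec12a with 1458, Clec4a1 with 1405, Clec4a3 with 749 and Clec4n with 600. Clec4e with 269, Clec5a with 248 and Clec4a2 with 230 normalized counts per kb were lower, and Clec4b1 came last in each group with 61.4. Over all libraries only Clec4d over Clec7a and Clec4n over Clec4e were separated in range from the next gene, but within groups more neighbours were. Clec7a and Clec12a, Clec4a1 and Clec4a3, and Clec4a2 and Clec4b1 were separate in range in all 5 groups. Clec12a and Clec4a1 were separate in 4 of 5 groups and changed places, since Clec4a1 held the third rank in high glucose and with PBS and the fourth in the other groups. Clec4a3 and Clec4n were separate in 3 of 5 groups and overlapped in both exosome groups. The order of Clec4e, Clec5a and Clec4a2 depended on the group. Clec4a2 was seventh in normal glucose (252, above Clec4e with 214 and Clec5a with 208 normalized counts per kb), Clec5a was seventh in high glucose and with BMDM-HG-exo, and Clec4e with PBS and BMDM-NG-exo. Clec4e and Clec5a were separate in range only with PBS (1 of 5 groups), and Clec5a and Clec4a2 only in high glucose and with BMDM-HG-exo (2 of 5). Of the normalized counts of the 10 genes together, 75.8% fell on Clec4d, Clec12a and Clec7a.

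**Figure D1:**
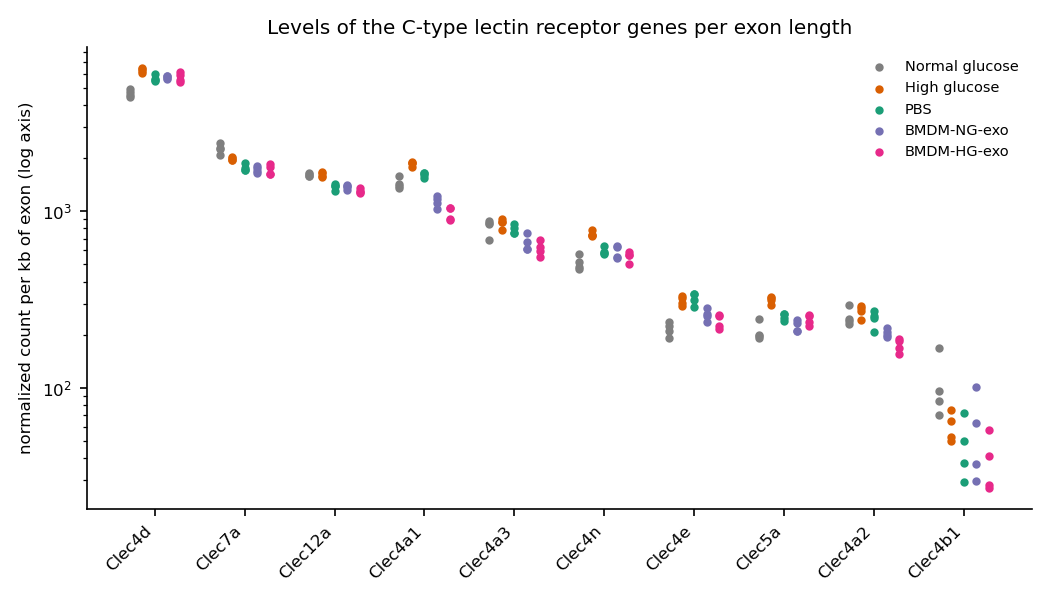
Normalized count per kb of exon (log axis) of each C-type lectin receptor gene, with 1 point per library and the 5 groups in separate colours. The genes are ordered by their mean over 20 libraries, from Clec4d at 5635 to Clec4b1 at 61.4, and the ranges of several neighbours overlap.

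In high glucose, 5 of the 10 genes were significantly higher than in normal glucose and 1 was lower (limma, p under 0.05 after Benjamini-Hochberg (BH) adjustment over all genes tested). Of all 14425 genes tested, 13.3% were called, 7.74% higher and 5.53% lower. Clec5a, Clec4n, Clec4e, Clec4d and Clec4a1 rose by between 29.3% and 51.5%, and Clec7a was 12.3% lower. The genes that rose include Clec4n, Clec4d and Clec4e, which pair with the Fc receptor gamma chain and lie side by side. Clec4b1 also pairs with this chain and lies in the same cluster. Its mean was lower in high glucose (47.4 against 81.5 normalized counts), and it was not called. Clec4a2, Clec4a3, Clec12a and Clec4b1 did not pass the test. The median log2 fold change (log2FC) of the 10 genes was 0.24, beside -0.0031 over all genes tested. For all genes together the split between 1116 higher and 798 lower became 789 higher and 872 lower after quantile normalization, while 5 members were still called higher and 1 lower.

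Clec5a (ENSMUSG00000029915), the DAP12-coupled receptor MDL-1, had 1210, 1231, 1135 and 1248 normalized counts in the 4 high glucose libraries and 765, 945, 737 and 750 in the 4 normal glucose libraries. All high glucose libraries lay above all normal glucose libraries, although 1 normal glucose library, at 945, stood above the other 3. The means were 1206 ± 49.9 and 799 ± 98.0 (SD, n = 4 each). The log2FC was 0.60 (SE 0.076, BH-adjusted p = 3.22e-07 in limma).

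Clec4n (ENSMUSG00000023349), which encodes the alpha-mannan receptor Dectin-2, had 1034, 1107, 1046 and 1049 normalized counts in high glucose and 686, 671, 733 and 818 in normal glucose. The groups did not overlap. The means were 1059 ± 32.7 and 727 ± 66.4 (SD, n = 4 each), a log2FC of 0.55 (SE 0.075, BH-adjusted p = 1.51e-06 in limma). Clec4e (ENSMUSG00000030142), which encodes Mincle, the receptor of the mycobacterial cord factor, had 1499, 1653, 1596 and 1439 normalized counts in high glucose and 1104, 1040, 945 and 1168 in normal glucose. Here too each high glucose library was above each normal glucose library. The log2FC of Clec4e was 0.54 (SE 0.068, BH-adjusted p = 2.68e-07 in limma).

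Clec4d (ENSMUSG00000030144) encodes MCL, which forms complexes with Mincle and stands next to it on the chromosome. It had 9701, 10252, 10024 and 10410 normalized counts in high glucose and 7172, 7292, 7568 and 7901 in normal glucose. The means of 10097 ± 308 and 7483 ± 324 (SD, n = 4 each) were further apart in counts than those of any other member, and the log2FC was 0.43 (SE 0.038, BH-adjusted p = 1.62e-10 in limma). Clec4a1 (ENSMUSG00000049037), at the other end of the cluster, had 2921, 2953, 2919 and 2798 normalized counts in high glucose and 2218, 2158, 2127 and 2476 in normal glucose. The groups of Clec4a1 did not overlap, and its log2FC was 0.37 (SE 0.052, BH-adjusted p = 1.85e-06 in limma). For all 5 members that rose, every high glucose library was above every normal glucose library, which held for 9.18% of all genes tested. Leaving out 1 library at a time (8 fits) kept these 5 calls, as did 11 further fits with another scaling, filter, pseudocount, tool or design. Among the latter, the fit with the library number as a block rests only on the libraries whose number occurs in both groups.

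Clec7a (ENSMUSG00000079293), which encodes the beta-glucan receptor Dectin-1, moved the other way. It had 5366, 5195, 5292 and 5154 normalized counts in high glucose and 5523, 6024, 5977 and 6449 in normal glucose. All high glucose libraries were below all normal glucose libraries, as they were for 7.11% of all genes. Its log2FC was -0.19 (SE 0.043, BH-adjusted p = 0.0021 in limma). The call was lost without the trend of the variance on the mean, where the BH-adjusted p was 0.0982 by limma.

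The other 4 members were not called. Clec12a (ENSMUSG00000053063), an inhibitory receptor of uric acid crystals and dead cells, had between 8687 and 9268 normalized counts in high glucose and between 8733 and 9068 in normal glucose. Its log2FC of 0.011 had a 95% interval from -0.063 to 0.085. The intervals were wider for Clec4a2 (ENSMUSG00000030148), at 0.11 (from -0.059 to 0.29), and for Clec4a3 (ENSMUSG00000043832), at 0.064 (from -0.087 to 0.22). Clec4b1 (ENSMUSG00000030147) had 50.5, 41.3, 58.6 and 39.2 normalized counts in high glucose and 54.8, 131, 65.4 and 74.6 in normal glucose, and these groups overlapped. The log2FC of Clec4b1 was -0.71 with an interval from -1.28 to -0.14 and a BH-adjusted p of 0.0931 by limma, which was 0.0437 without normal glucose library 1.

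**Figure D2:**
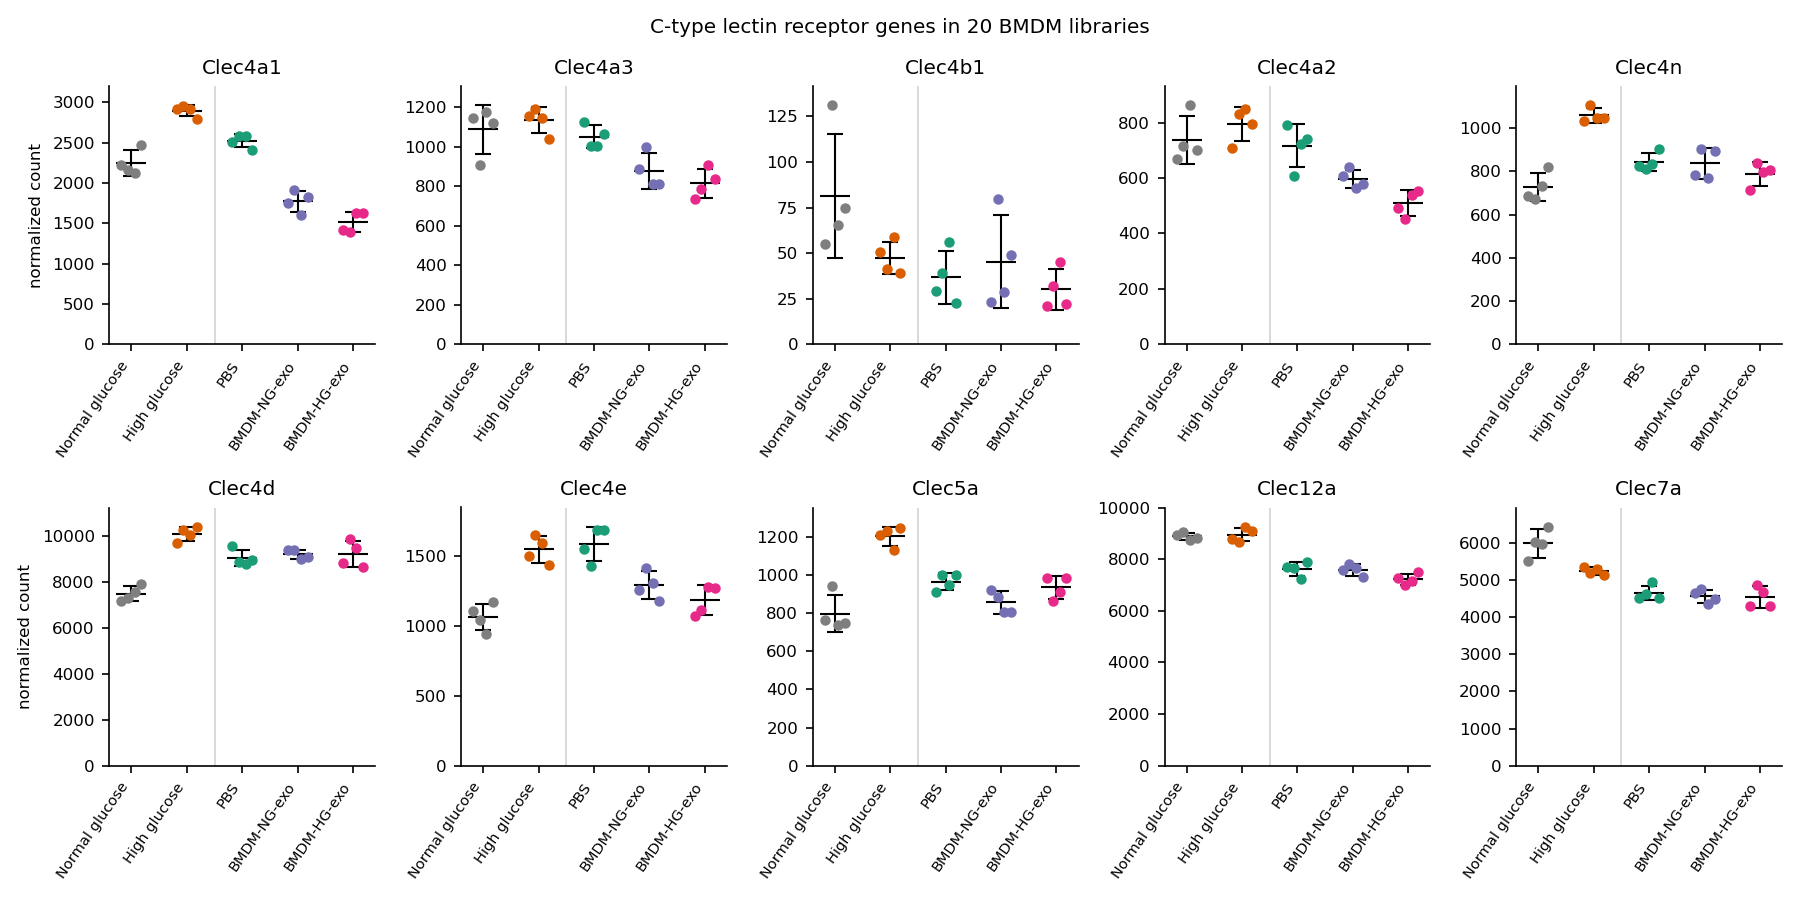
Normalized count of each C-type lectin receptor gene in each library (points), with the group mean (long bar) and SD (whiskers), for normal and high glucose, PBS and the exosome groups. Each panel starts at 0 on its own axis. Clec4d, Clec4e, Clec4n, Clec5a and Clec4a1 are higher in all high glucose libraries, and Clec4a1 is lower in all 8 exosome libraries than with PBS.

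The stretch of 250 bases just before an annotated transcript start is shown for members whose counts moved in high glucose. The table of promoters from RefSeq (GRCm38.p6) holds 9 of the 10 members, in 11 windows, with none for Clec4n. Sequences run from 5′ to 3′ on the strand of the gene, and capitals mark matches on either strand to any of the 5 motifs searched. These were TTGCNNAA (C/EBP), GAGGAA (PU.1), TGANTCA (AP-1), GGG and CC with any 5 bases between them (NF-kB) and CATGTG (MITF/TFE), and overlapping matches were counted.
Clec5a, chr6:40585806-40586055, reverse strand: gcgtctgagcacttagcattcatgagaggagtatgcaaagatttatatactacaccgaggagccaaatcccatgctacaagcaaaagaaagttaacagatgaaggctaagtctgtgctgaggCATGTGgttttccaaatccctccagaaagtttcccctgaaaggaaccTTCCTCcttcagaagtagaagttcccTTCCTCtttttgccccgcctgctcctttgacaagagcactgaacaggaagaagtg
Clec4d, chr6:123261857-123262106, forward strand: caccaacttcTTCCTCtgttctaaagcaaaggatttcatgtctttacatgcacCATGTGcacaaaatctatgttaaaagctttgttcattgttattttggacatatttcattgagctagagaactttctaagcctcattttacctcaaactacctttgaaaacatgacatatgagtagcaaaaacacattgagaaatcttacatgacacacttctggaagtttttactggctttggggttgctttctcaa
Clec4e, chr6:123289872-123290121, reverse strand: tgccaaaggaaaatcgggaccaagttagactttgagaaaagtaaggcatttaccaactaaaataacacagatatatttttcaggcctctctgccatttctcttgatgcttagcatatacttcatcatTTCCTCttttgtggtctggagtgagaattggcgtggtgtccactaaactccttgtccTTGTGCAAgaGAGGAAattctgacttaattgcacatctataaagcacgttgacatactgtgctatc
Clec4a1, chr6:122921598-122921847, forward strand: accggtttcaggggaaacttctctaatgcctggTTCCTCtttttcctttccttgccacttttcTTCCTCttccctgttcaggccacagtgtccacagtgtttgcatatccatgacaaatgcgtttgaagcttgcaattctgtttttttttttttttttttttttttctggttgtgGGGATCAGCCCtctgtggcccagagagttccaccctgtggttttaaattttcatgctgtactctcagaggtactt
Clec7a, chr6:129472780-129473029, reverse strand: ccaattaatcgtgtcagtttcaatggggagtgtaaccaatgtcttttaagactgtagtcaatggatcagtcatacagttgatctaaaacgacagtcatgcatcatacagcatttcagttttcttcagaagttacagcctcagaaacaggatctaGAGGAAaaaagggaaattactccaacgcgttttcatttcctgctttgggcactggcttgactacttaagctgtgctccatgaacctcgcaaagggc

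The PU.1 letters occurred in a window of 8 of the 9 members, and in 23.3% of all 32851 promoter windows of the same length. Members are counted here by gene, with a match in any of their windows, and the shares by window. Clec4a3 and Clec7a have more than 1 window, so the units differ. Clec4a2 was the member without them. Its window (123122440 to 123122689) lies inside the span of the gene given above, and so does that of Clec12a (129349994 to 129350243). For these 2 members the sequence before the start of that span was not searched. In Clec4e the PU.1 letters begin 123 and 56 bases before the start, and in Clec5a 81 and 55 bases before it. The C/EBP letters were found in 2 of 9 members, Clec4e and Clec12a, and in 9.56% of all windows, and in Clec4e they begin 66 bases before the start. The MITF/TFE letters occurred in 4 of 9 members and in 12.3% of all windows. The AP-1 letters were found in Clec12a (1 of 9 members, 6.75% of all windows) and the NF-kB letters in Clec4a1 (1 of 9 members, 45.8% of all windows), where 2 overlapping matches begin 75 and 74 bases before the start. These are matches of letters and not measured binding. A window without a match says only that these letters are not in it.

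In naive BMDM, Clec4a1 and Clec4e were lower with both kinds of exosomes than with PBS. Clec4a2 and Clec4a3 were called lower with BMDM-HG-exo, and their means with BMDM-NG-exo (598 and 878 normalized counts) were also below those with PBS (717 and 1051). The direct comparison of the exosome groups called neither Clec4a2 nor Clec4a3 (BH-adjusted p = 0.658 and 0.924 in limma). With BMDM-NG-exo, 2 of the 10 genes were significantly lower than with PBS and none was higher (the same limit on p in limma, and a log2FC of 0.15 or more in size). Of all 14413 genes tested, 3.0% were called and 2.11% were called lower. With BMDM-HG-exo, 4 members were lower than with PBS and none was higher, beside 4.84% of all genes called and 3.08% called lower. Both comparisons share the PBS libraries, so their values are given side by side and not as independent results. The median log2FC of the 10 genes was -0.10 with BMDM-NG-exo and -0.18 with BMDM-HG-exo, and that of all genes was 0.0045 and 0.0034.

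Clec4a1 fell furthest among the called members. It had 2510, 2586, 2578 and 2412 normalized counts with PBS, 1745, 1909, 1607 and 1826 with BMDM-NG-exo, and 1418, 1388, 1622 and 1624 with BMDM-HG-exo. All 8 exosome libraries were below all 4 PBS libraries. The log2FC against PBS was -0.51 with BMDM-NG-exo (SE 0.062, BH-adjusted p = 6.56e-07 in limma). With BMDM-HG-exo it was -0.74 (SE 0.062, BH-adjusted p = 2.09e-10 in limma). Both calls held without any 1 library and under the 11 further settings.

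Clec4e had 1553, 1430, 1684 and 1684 normalized counts with PBS, 1259, 1414, 1307 and 1174 with BMDM-NG-exo, and 1074, 1114, 1281 and 1271 with BMDM-HG-exo. Neither exosome group overlapped with PBS, although the nearest libraries, at 1414 and 1430, were close. The log2FC was -0.30 with BMDM-NG-exo (SE 0.072, BH-adjusted p = 0.010 in limma) and -0.42 with BMDM-HG-exo (SE 0.072, BH-adjusted p = 0.00011 in limma). The call with BMDM-NG-exo was lost without PBS library 4 (adjusted p = 0.0546), without BMDM-NG-exo library 4 (adjusted p = 0.0576) and without the trend of the variance (BH-adjusted p = 0.165, all by limma).

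Clec4a2, the inhibitory receptor DCIR, had 793, 608, 724 and 743 normalized counts with PBS, 607, 640, 566 and 580 with BMDM-NG-exo, and 493, 451, 541 and 554 with BMDM-HG-exo. The BMDM-HG-exo libraries lay below all PBS libraries, and the BMDM-NG-exo libraries overlapped with them. With BMDM-HG-exo the log2FC against PBS was -0.49 (SE 0.095, BH-adjusted p = 0.00066 in limma). With BMDM-NG-exo it was -0.26 and did not pass (BH-adjusted p = 0.171 in limma). Clec4a3 had 1127, 1005, 1004 and 1067 normalized counts with PBS, 888, 1001, 810 and 813 with BMDM-NG-exo, and 736, 786, 907 and 838 with BMDM-HG-exo. Its log2FC against PBS was -0.37 with BMDM-HG-exo (SE 0.081, BH-adjusted p = 0.0029 in limma), which did not pass without the trend of the variance (adjusted p = 0.0584). With BMDM-NG-exo the log2FC of Clec4a3 was -0.26 and the BH-adjusted p 0.0681 by limma, although the groups did not overlap, and leaving out BMDM-NG-exo library 2 gave 0.0246. With DESeq2 in place of limma it was 0.0408.

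Every BMDM-NG-exo library was below every PBS library for 3 members and for 4.63% of all genes tested. Every BMDM-HG-exo library was below every PBS library for 4 members and for 5.59% of all genes. Clec4a1 and Clec4e are the members that rose in high glucose and fell with both kinds of exosomes. The other 3 genes that rose in high glucose did not pass in either exosome comparison.

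**Figure D3:**
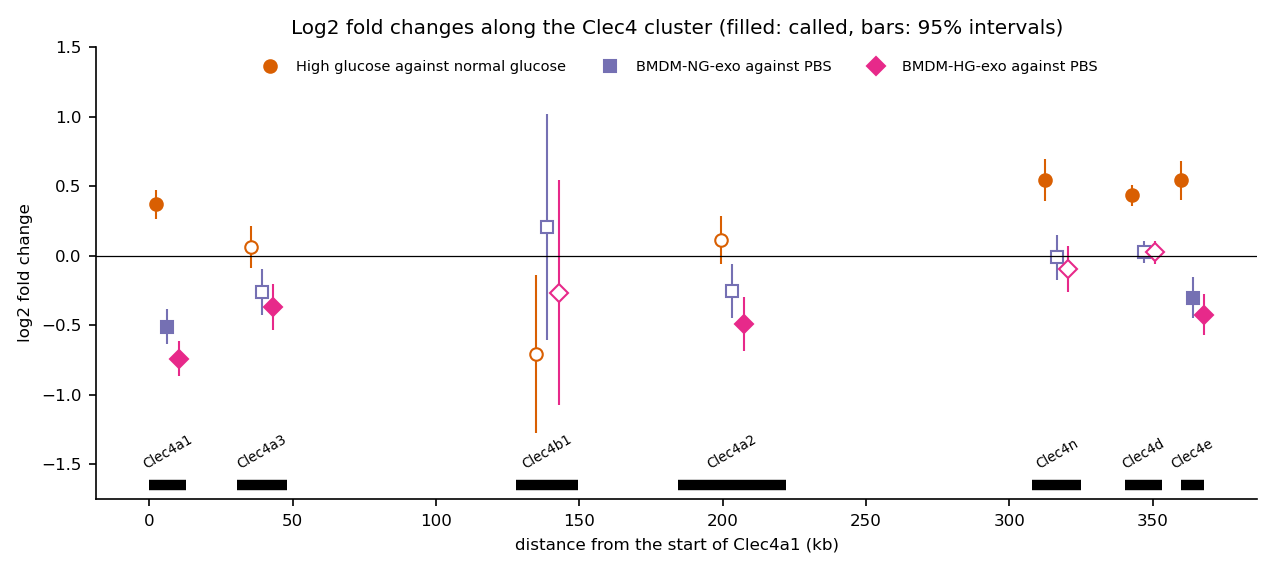
Log2FC (y axis) of the 7 Clec4 genes against their distance in kb from the start of Clec4a1 (x axis), for high against normal glucose (circles) and for BMDM-NG-exo (squares) and BMDM-HG-exo (diamonds) against PBS. Filled symbols passed the test, vertical bars are 95% intervals from limma, and black bars mark the genes. The 3 genes at the right end and Clec4a1 at the left end rose in high glucose, and the 4 genes called with BMDM-HG-exo are Clec4a1, Clec4a3, Clec4a2 and Clec4e.

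Clec4d, the most abundant member, had 9579, 8872, 8773 and 8975 normalized counts with PBS, 9382, 9382, 9007 and 9092 with BMDM-NG-exo, and 8842, 9855, 9478 and 8654 with BMDM-HG-exo. The 3 groups overlapped, and the log2FC values against PBS were 0.027 with BMDM-NG-exo (95% interval from -0.054 to 0.11) and 0.024 with BMDM-HG-exo (from -0.057 to 0.10). Clec4n had normalized counts of 811 to 903 (PBS), 768 to 904 (BMDM-NG-exo) and 711 to 840 (BMDM-HG-exo). Its log2FC values were -0.012 (from -0.18 to 0.15) and -0.097 (from -0.26 to 0.066). For Clec7a they were -0.027 (from -0.12 to 0.067) and -0.037 (from -0.13 to 0.057).

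Against PBS, Clec12a had a log2FC of -0.0072 with BMDM-NG-exo (95% interval from -0.085 to 0.070) and one of -0.077 with BMDM-HG-exo (from -0.15 to 0.00080). Those of Clec5a were -0.17 (from -0.33 to -0.022, BH-adjusted p = 0.274 in limma) and -0.047 (from -0.20 to 0.11). Clec4b1 had 29.1, 38.8, 56.2 and 22.8 normalized counts with PBS, 23.1, 79.5, 28.7 and 49.2 with BMDM-NG-exo, and 21.1, 32.2, 45.2 and 22.0 with BMDM-HG-exo. Its intervals, from -0.60 to 1.02 and from -1.08 to 0.54, include changes of the size seen in other members.

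Against the 8 libraries with PBS or BMDM-NG-exo combined, the BMDM-HG-exo libraries gave few calls, and 1 member was called, Clec4a1, which was lower. Of all 14413 genes, 0.201% were called and 0.132% were called lower. All genes together gave 10 higher and 19 lower calls, and after quantile normalization 9 and 10. Clec4a1 had a mean of 1513 ± 127 (SD, n = 4) with BMDM-HG-exo, and the controls one of 2147 ± 413 (SD, n = 8). The SD of the controls includes the gap between PBS (2521 ± 80.7) and BMDM-NG-exo (1772 ± 129, SD, n = 4 each). The p-values of this comparison carry such gaps too, since the fit holds both controls as 1 group. BMDM-HG-exo and the controls overlapped, since BMDM-NG-exo library 3 lay at 1607 normalized counts. The log2FC was -0.48 (SE 0.102, BH-adjusted p = 0.0392 in limma). The labels give each of the 3 exosome groups 1 library from each of the same 4 dates, and with the date as a block the BH-adjusted p was 0.0780 by limma. It was between 0.0640 and 0.0926 without PBS library 1, 2, 3 or 4, and 0.248, 0.156 and 0.0996 without BMDM-HG-exo library 1, 2 or 3 by limma. The call was also lost with quantile normalization (adjusted p = 0.0514) and without the trend of the variance (adjusted p = 0.400, both by limma), and with DESeq2 (adjusted p = 0.0514). Of the 9 macrophage markers, 2 were called lower here, Itgam (log2FC -0.29) and Fcgr1 (-0.39).

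Clec4a2 was the member whose BMDM-HG-exo libraries lay below all 8 controls, as did 0.597% of all genes. Its means were 510 ± 47.2 (SD, n = 4) and 658 ± 84.4 (SD, n = 8), and its log2FC was -0.36 with a BH-adjusted p of 0.0748 by limma. The BH-adjusted p was 0.0242 without BMDM-NG-exo library 3, 0.0251 with DESeq2 and 0.0048 in a fit of all 20 libraries. That fit kept PBS and BMDM-NG-exo as separate groups of equal weight, so it differs from the combined fit in more than its libraries. Clec4e and Clec4a3 had log2FC values of -0.27 and -0.23, with BH-adjusted p-values of 0.152 and 0.262 by limma. That of Clec4e was 0.0076 in the fit of all 20 libraries. The other 6 members had log2FC values between -0.37 and 0.040.

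For BMDM-HG-exo directly against BMDM-NG-exo, limma called 0 members and 0.0139% of all genes tested, with 2 members and 942 genes at an unadjusted p-value under 0.05. Neither DESeq2 nor edgeR called a member. With the date as a block, 22 genes were called in place of 2, and again 0 members. Clec4a1 had the smallest p-value of the 10, with a log2FC of -0.23 (95% interval from -0.35 to -0.10, BH-adjusted p = 0.288 in limma). Clec4a2 also had -0.23 (from -0.43 to -0.039, BH-adjusted p = 0.658 in limma), and its BMDM-HG-exo libraries lay below all BMDM-NG-exo libraries, as did 2.01% of all genes. The other 9 members, Clec4a1 among them, overlapped between the exosome groups. Clec4d had an interval from -0.084 to 0.078 around a log2FC of -0.0031, and Clec7a one from -0.10 to 0.084.

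**Figure D4:**
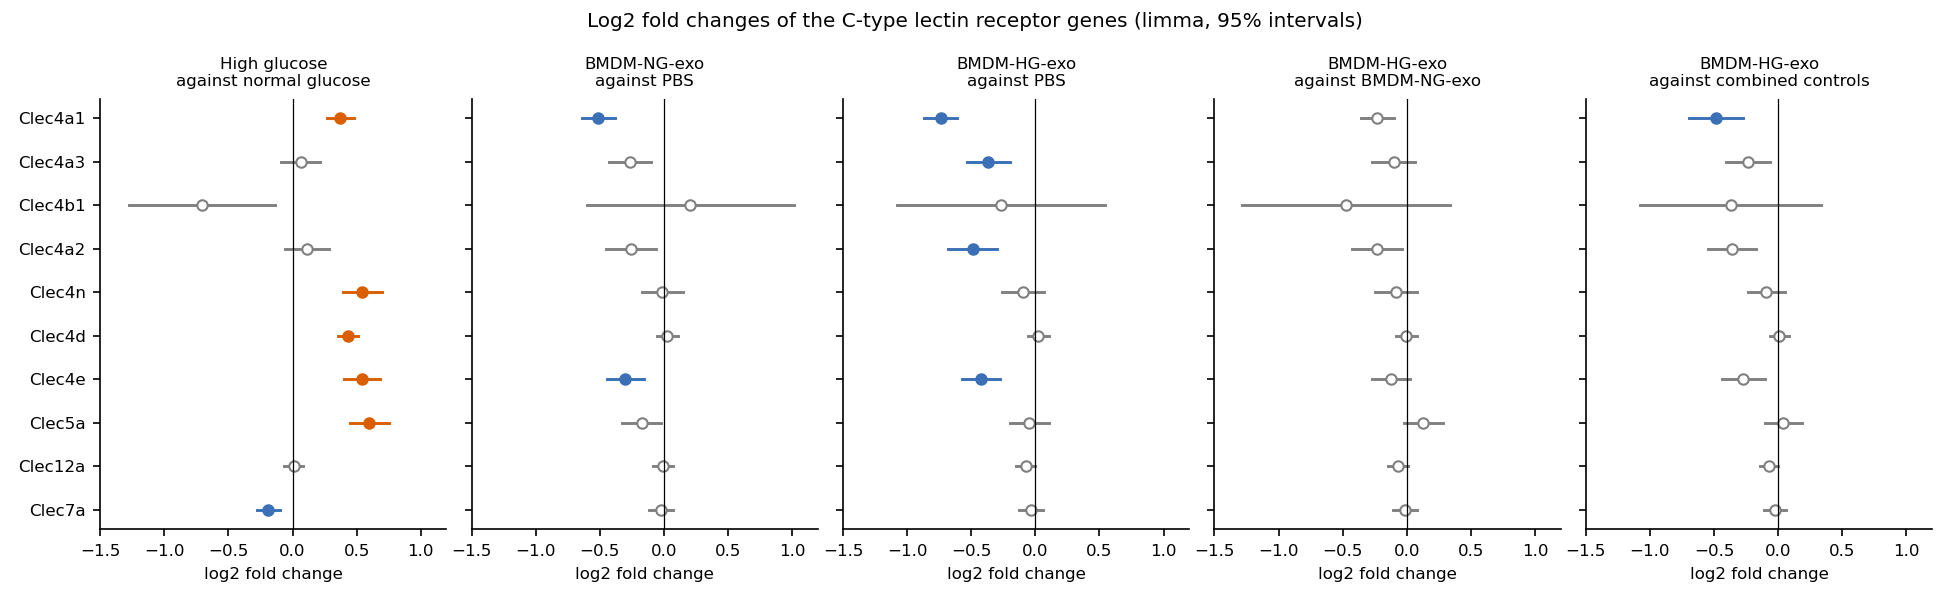
Log2FC (x axis) of each C-type lectin receptor gene in 5 comparisons, with 95% intervals from limma. Filled orange points passed the test and were higher, filled blue points passed and were lower, and open grey points did not pass. There are 5 higher genes and 1 lower gene in high glucose, 2 and 4 lower genes with exosomes against PBS, none between the exosome groups and 1 lower gene against the combined controls.

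The adaptors and signalling genes downstream of these receptors were all listed (49 of 49). In high glucose, 12 of them were called higher and 0 lower, with a median log2FC of 0.052. Of all genes tested, 7.74% were called higher and 5.53% lower. This list and those below were chosen with earlier results of these data known. Fcer1g, the gamma chain shared by Dectin-2, Mincle and MCL, had 12365 ± 535 normalized counts in normal glucose and 13632 ± 375 in high glucose (SD, n = 4 each), a log2FC of 0.14 (BH-adjusted p = 0.0064 in limma). Ptpn6, which encodes the phosphatase SHP-1, rose from 12681 ± 665 to 15327 ± 157 normalized counts (SD, n = 4 each), a log2FC of 0.27 (BH-adjusted p = 7.01e-07 in limma). Rnf128, an E3 ubiquitin ligase, and Itpr1, a calcium release channel, rose by log2FC values of 0.73 and 0.34. Tyrobp, the adaptor of Clec5a, had a log2FC of 0.099 and did not pass (BH-adjusted p = 0.104 in limma). The log2FC values of Syk, Card9, Hcst and Ptpn11 were between -0.012 and 0.067 and did not pass either.

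With exosomes the same list had 0 genes called higher and 6 lower for BMDM-NG-exo against PBS, and 3 higher and 10 lower for BMDM-HG-exo against PBS. Among all genes tested, 2.11% and 3.08% were called lower in these 2 comparisons. Ptpn6 had 14851 ± 982 normalized counts with PBS, 12642 ± 909 with BMDM-NG-exo and 13066 ± 617 with BMDM-HG-exo (SD, n = 4 each), and fell by 0.23 and 0.18 on the log2 scale. The NF-kB subunit genes Nfkb2 and Relb fell by 0.35 and 0.31 with BMDM-NG-exo and by 0.37 and 0.39 with BMDM-HG-exo. The kinase gene Fgr fell by 0.46 with BMDM-HG-exo. Cblb, an E3 ligase that limits these receptors, rose with BMDM-HG-exo by 0.30 against PBS and by 0.23 against the combined controls (BH-adjusted p = 0.0381 in limma), where it was the gene of the list that was called. Rnf128 and Blnk, a B cell linker adaptor, rose by 0.21 and 0.18 with BMDM-HG-exo against PBS.

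Fcer1g, Tyrobp, Hcst, Syk, Card9 and Ptpn11 did not pass against PBS with either kind of exosomes. With BMDM-NG-exo and BMDM-HG-exo in turn, the log2FC values of Fcer1g were -0.051 and -0.047, those of Tyrobp -0.040 and -0.070, those of Syk -0.026 and -0.068 and those of Ptpn11 -0.017 and 0.0071. Card9 had 2770 ± 110 normalized counts with PBS, 2518 ± 83.8 with BMDM-NG-exo and 2470 ± 147 with BMDM-HG-exo (SD, n = 4 each), and with BMDM-HG-exo its BH-adjusted p was 0.0516 by limma. Hcst, at 60.6 to 145 normalized counts, had log2FC values of -0.37 and -0.12 that did not pass. Between the exosome groups 0 of 49 genes were called by limma, beside 0.0139% of all genes tested. Of the named adaptors Hcst had the log2FC furthest from 0, at 0.24 (not called).

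**Figure D5:**
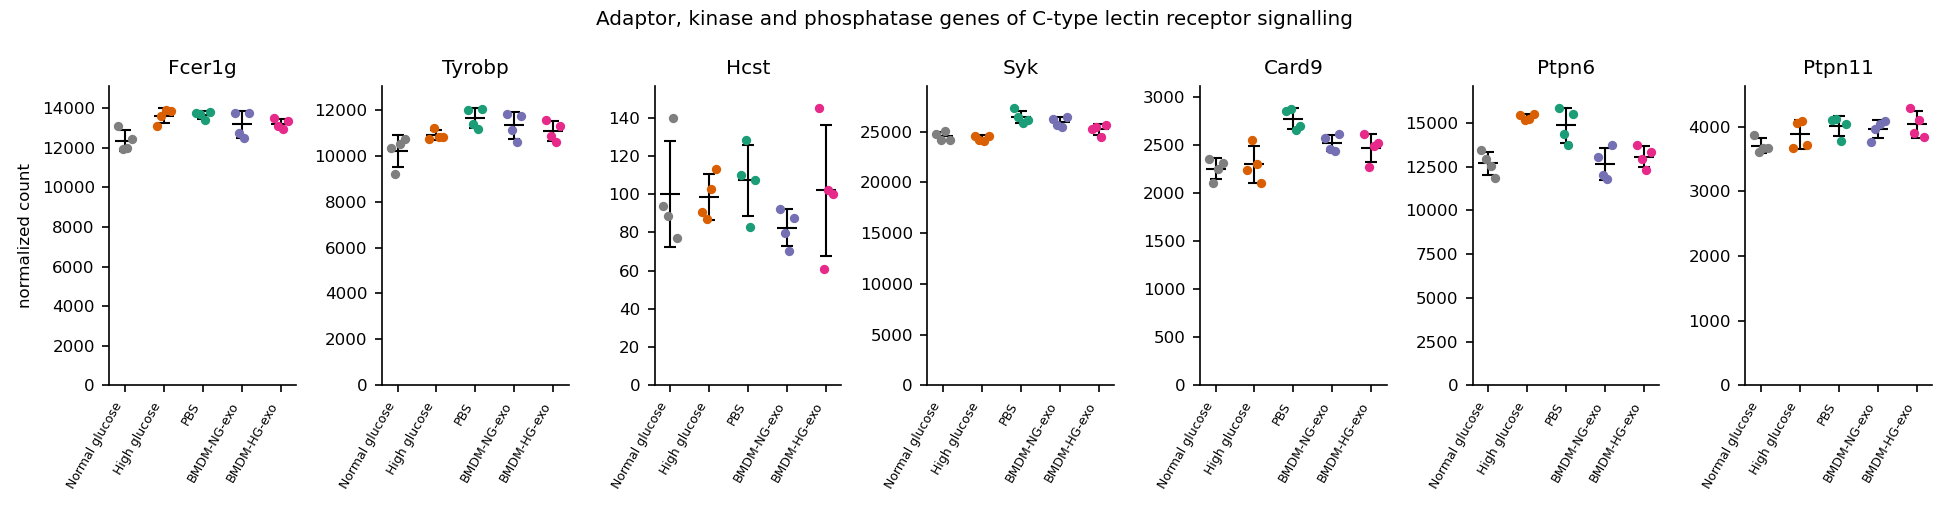
Normalized count of the adaptor genes Fcer1g, Tyrobp, Hcst and Card9, the kinase gene Syk and the phosphatase genes Ptpn6 and Ptpn11 in each library (points) of the 5 groups, with group means and SD. Each panel starts at 0 on its own axis. Ptpn6 is higher in high glucose (15327 against 12681) and its means with exosomes (12642 and 13066) are below that with PBS (14851).

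Genes that respond to these receptors were examined as a list of 28, of which 17 were listed. In high glucose, 4 were higher and 1 was lower, beside 7.74% and 5.53% of all genes tested. Tnf rose from 323 ± 45.6 to 538 ± 61.0 normalized counts (SD, n = 4 each), Nfkbia by a log2FC of 0.40 and Ccl4 by 0.31, and the early growth response gene Egr1 was lower (-0.44). Against PBS, 5 of the 17 were lower with BMDM-NG-exo, and 6 were lower and 1 higher with BMDM-HG-exo. The shares of all genes called lower were 2.11% and 3.08%. Il1b had 167 ± 26.1 normalized counts with PBS, 89.2 ± 13.5 with BMDM-NG-exo and 79.1 ± 24.7 with BMDM-HG-exo (SD, n = 4 each), and the chemokine gene Ccl3 was higher with BMDM-HG-exo by a log2FC of 0.32. Cxcl2 and Socs3 had log2FC values of -0.97 and -0.91 with BMDM-HG-exo. No gene of this list was called between the exosome groups or against the combined controls (0 of 17 by limma in each). Of all genes tested, 0.0139% and 0.201% were called in these comparisons.

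Of 19 transcription factor genes of myeloid cells, 18 were listed. In high glucose 6 were higher and 1 lower, beside 7.74% and 5.53% of all genes tested. Cebpd and Cebpb, which encode C/EBP factors, rose by log2FC values of 0.45 and 0.38, Irf5 rose by 0.24, and Maf was lower (-0.18). With BMDM-NG-exo against PBS Irf5 was lower (-0.18), 1 of 18 genes. With BMDM-HG-exo 4 of 18 were lower, among them Spi1, which encodes PU.1 (-0.17), Hif1a (-0.18) and Cebpb (-0.19). The shares of all genes called lower were 2.11% with BMDM-NG-exo and 3.08% with BMDM-HG-exo.

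Of 62 other C-type lectin genes, 20 were listed. In high glucose 3 of them were higher and 4 lower, with a median log2FC of 0.027, beside 7.74% higher and 5.53% lower of all genes. Cd72, a receptor with an inhibitory motif, rose from 9312 ± 1128 to 15455 ± 870 normalized counts (SD, n = 4 each), and the scavenger collectin gene Colec12 rose by a log2FC of 0.45. Mrc1, the macrophage mannose receptor, was lower with 8211 ± 664 against 11360 ± 832 normalized counts (SD, n = 4 each), a log2FC of -0.47. The low genes Cd69, Clec1a and Pla2r1, at group means of at most 64.7 normalized counts, had log2FC values of 1.10, -1.27 and -1.49. Against PBS, Cd72 (-0.44) and Clec2d (-0.22) were lower with BMDM-NG-exo, and Clec10a (-0.53), Clec2d (-0.34) and Cd72 (-0.31) with BMDM-HG-exo.

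Markers of the macrophages moved in the same comparisons. In high glucose 4 of 9 macrophage markers were called higher and 2 lower, with Lyz2, Cd14 and Csf1r at log2FC values of 0.42, 0.39 and 0.35, and Mertk and Cd68 at -0.40 and -0.15. Among all genes tested, 7.74% were higher and 5.53% lower. The summed level of the 9 markers was between 640133 and 714242 normalized counts in normal glucose and between 819293 and 889763 in high glucose. Most of the sum was Lyz2 (median 570203 over the 20 libraries), with 480718 ± 27003 in normal and 642842 ± 29682 in high glucose (SD, n = 4 each). Against PBS, 5 of 9 were lower with BMDM-NG-exo and 5 of 9 with BMDM-HG-exo, with Fcgr1 at -0.41 and -0.60. The shares of all genes called lower were 2.11% and 3.08%. The sums were between 807730 and 854368 with PBS, 729409 to 786639 (BMDM-NG-exo) and 746994 to 771979 (BMDM-HG-exo). In bulk libraries, fewer cells of a type and less RNA of a gene per cell cannot be told apart. The part of these markers in the results on the C-type lectin receptors was not tested.

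Neutrophils also express several of these receptors. The 6 listed neutrophil markers summed to between 719 and 942 normalized counts in normal glucose, 889 and 1002 in high glucose, 1058 and 1457 with PBS, 1063 and 1383 with BMDM-NG-exo, and 1124 and 1330 with BMDM-HG-exo. Mmp8, with a median of 853 normalized counts over the 20 libraries, was the largest part of these sums. It was called higher in high glucose (log2FC 0.44), and 0 of 6 were called by limma in the exosome comparisons. The shares of all genes called in those comparisons were between 0.0139% and 4.84%. The 4 stromal markers summed to between 110 and 372 normalized counts, with overlapping ranges in all groups. The part of these cells in the results was not tested.

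After the group means were removed, the variation of the members over the 20 libraries was compared. Over the 45 pairs of members the median Pearson r was 0.18, from -0.42 (Clec7a and Clec12a) to 0.58 (Clec4b1 and Clec7a), and Clec4a1 and Clec4e had an r of 0.55. Among 11709 genes with a mean of at least 50, those most like Clec4a1 were Aif1 (r = 0.81), Cd300e (0.80) and Ulk2 (0.78). Gnai3 (0.89), Pfdn5 (0.84) and Abracl (0.83) were nearest to Clec4d, and Cpsf6 (0.80), Acp6 (0.79) and 1110059G10Rik (0.79) to Clec4e. For Clec7a they were Snapin (0.82), Gm47483 (0.82) and Tnpo3 (0.81), and for Clec12a Slfn3 (0.85), Pspc1 (0.82) and Trak2 (0.80). Arhgef18 (0.82) was nearest to Clec4a3, Mettl15 (0.78) to Clec4a2, Ier3ip1 (0.82) to Clec4n, Gm11769 (0.84) to Clec5a and Ipmk (0.86) to Clec4b1. The libraries share their depth and normalization, and the genes named are the highest of many, so these values describe the libraries and are given with no p-value.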

How the data were processed

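Total RNA was made into stranded libraries with ribosomal cDNA removed. The authors mapped them to GRCm38 with STAR and counted genes with featureCounts, with read 2 on the sense strand (tools as in the submitters' processing notes and the study's methods). The annotation used for counting is not given in the sources used here. The deposited signal is a gene count that the authors divided by the DESeq2 size factor of the library, so a change of the size factor moves all genes of a library together. It covers 20 libraries, and every column was matched to a sample. Whole reads were recovered from the smallest step between values (100% of values whole, tolerance 0.02) and used for totals, edgeR and DESeq2. For PBS library 4 and BMDM-HG-exo library 1 the step is close to 1 (0.992 and 1.006), but their values are not whole numbers. The step times the size factor of the recovered reads was 1.0 in both, so these columns were scaled too. Names, coordinates and exon lengths came from GENCODE M21.

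The members and gene lists were chosen with earlier results of these data known. Log2 of the normalized count plus 1 was tested with limma 3.58.1 in R 4.3.3 (lmFit, eBayes with trend, two-sided) over genes whose mean was 10 or more, with Benjamini-Hochberg adjustment over all of them. Log2 fold changes are on that scale, which understates the change of low genes. The 8 glucose and 12 exosome libraries were fitted separately, with the 8 controls either combined or as 2 groups. Calls needed an adjusted p-value under 0.05 and, with exosomes, a log2 fold change of 0.15 or more in size. Named genes were all members, Fcer1g, Tyrobp, Hcst, Syk, Card9, Ptpn6 and Ptpn11, and per list and comparison at most the 3 called genes with the largest change in each direction. Alternatives varied pseudocount, filter, scaling, trend, tool (edgeR 4.0.16, DESeq2 1.42.0), block and libraries. Exosome libraries of the same label date pair by day, and after removal of group means they correlated across genes with a mean r of 0.012 (12 pairs), other pairs with -0.0040 (36). Fits were tested on simulated counts with 200 changed genes, of which limma recovered at least 97% of log2 changes of 1 and at least 75% of those of 0.5 in the 3 comparisons simulated. Unchanged genes were 6.52% (glucose), 2.70% (combined controls) and 3.37% (BMDM-HG-exo against BMDM-NG-exo) of its calls. Changed genes had a mean of at least 50, and PBS and BMDM-NG-exo were simulated without a difference. The simulation therefore does not cover smaller changes, lower genes or controls that differ. Tables and plots used Python 3.11.15, pandas 2.3.3, numpy 2.4.6 and matplotlib 3.10.9. The protein sequences were not used here. The result for 1 gene of the adaptor and signalling list is not reported here by name.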

Additional observations from a re-analysis of the deposited data

Results flagged for a closer look

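For Clec5a in normal glucose, library 3 had 945 normalized counts and the other 3 had between 737 and 765. Its gap to the nearest of them was 0.865 of the range of the group, above Dixon's 95% critical value for 4 values. It was the only library to stand apart in this way among the 50 groups of 4 values examined (10 genes in 5 groups), where chance gives about 1 in 20. Clec5a was called higher in high glucose with and without this library.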

How the results depend on the processing

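The member calls in high glucose (6, from 6 to 7 with 1 library left out) and with BMDM-HG-exo against PBS (4, and 4 with each library left out) kept their number within 1.5 times in all alternatives run. Against the combined controls the 1 member became 0 with quantile normalization, without the variance trend and with the date as replicate block, 3 in a fit of all 20 libraries, and 0 to 2 with 1 library left out. The fit of all 20 libraries kept PBS and BMDM-NG-exo as separate groups, unlike the combined fit. With BMDM-NG-exo against PBS the 2 members became 1 without the trend and 1 to 3 with 1 library left out. Of all genes, without the trend 654 (glucose), 1 (combined controls), 1 (BMDM-HG-exo against BMDM-NG-exo), 95 and 295 (BMDM-NG-exo and BMDM-HG-exo against PBS) were called, in place of 1914, 29, 2, 432 and 698. For the combined controls it was 47 with a pseudocount of 5, 19 with quantile normalization, 127 with DESeq2, 322 in the fit of all 20 libraries and 1 to 204 with 1 library left out. Between the exosome groups it was 5 with a pseudocount of 5 or a mean of at least 50, 1 with TMM factors or edgeR, 22 with DESeq2, 22 with the replicate block, 0 in the fit of all libraries and 1 to 7 with 1 left out. The causes were not tested.

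Log2 fold changes that changed sign were all near 0 or of Clec4b1, and none of them was called. Quantile normalization gave -0.029 for Clec12a in glucose, 0.0021 for Clec4d between the exosome groups and 0.0061 for Clec12a with BMDM-NG-exo. With 1 library left out the ranges in glucose were -0.020 to 0.11 (Clec4a3) and -0.0055 to 0.026 (Clec12a), against the combined controls -0.023 to 0.039 (Clec4d) and -0.059 to 0.0031 (Clec7a), and between the exosome groups -0.036 to 0.026 (Clec4d) and -0.045 to 0.016 (Clec7a). For BMDM-NG-exo against PBS they were -0.11 to 0.46 (Clec4b1), -0.050 to 0.029 (Clec4n), -0.047 to 0.0020 (Clec7a) and -0.032 to 0.011 (Clec12a), and for BMDM-HG-exo against PBS -0.0096 to 0.053 (Clec4d).

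Only the numbers 1 and 6 occur in both glucose groups, so they are shared numbers and no pairs by design. Libraries with the same number had a mean r of 0.0071 (2 pairs), others -0.0010 (14). Every other number occurs in 1 library, so a fit with this replicate block compares only the libraries numbered 1 and 6. With this replicate block 788 of all genes were called in glucose, Clec4a3 had a log2 fold change of -0.050 and Clec7a a BH-adjusted p of 0.0600 in limma, and no other member call changed. The date block changed no member call other than that of Clec4a1 against the combined controls. Clec4b1 had the fewest reads (21 to 123), and what depth adds to its spread was not tested.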
